A study of Mus musculus with 8 samples.

Results

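The cytosolic ribosomal proteins are the protein subunits of the ribosome that translates nuclear-encoded messenger RNA. They were taken here as every non-control array probe whose gene name is Rpl or Rps with a number, or Rplp0, Rplp1 or Rplp2, leaving out the S6 kinases (Rps6k) and the mitochondrial ribosomal proteins (Mrp). The rule used names alone and no measured value. It found 79 gene names of 27845 on the array, carried by 132 of 41174 probes and 141 of 43379 spots. Of these probes, 74 stood for 45 large subunit genes, 55 for 31 small subunit genes and 3 for the stalk proteins Rplp0, Rplp1 and Rplp2. Tested were probes that all arrays of some group showed well above background, which kept 127 of the 132 members and 24286 probes in all. The 5 that were left out, 1 probe each of Rps19, Rps2, Rps6, Rpl35a and Rpl22l1, were designed on transcripts other than a RefSeq mRNA and were above background on no array. Of the tested members, 119 were well above background on all 8 arrays.

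The arrays held RNA from mouse salivary gland tumours driven by AKT, a kinase that signals to the growth regulator mTOR, and from normal glands. Per the labels, 300 ng of total RNA was labelled for each 1-colour Agilent whole genome array. The tumours were untreated (2 arrays), treated with rapamycin for 3 days (1 array) or treated with rapamycin for 14 days (2 arrays). The normal tissues were parotid gland (2 arrays) and submandibular gland (1 array). The labels give no strain, genotype, age, drug dose or promoter for the transgene, and nothing in them says if a group's arrays stand for different animals. The p-values therefore measure only the spread between these samples, which may be technical.

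The core ribosomal proteins are present in equal numbers in a ribosome, and its large and small subunits are assembled in the nucleolus around ribosomal RNA. Most vertebrate ribosomal protein mRNAs begin with a cytosine and a run of pyrimidines at the 5′ end, the terminal oligopyrimidine (TOP) tract. When mTORC1 is inhibited by rapamycin, the protein LARP1 binds this end and holds the mRNA out of translation, so the best known effect of the drug on this family is on translation and mRNA storage. An array measures the amount of RNA and not its translation.

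The start of a few members is shown because the tract is the feature through which mTORC1 is known to reach this family. Each line gives 10 bases before the annotated RefSeq start and 20 from it, on the coding strand, with capitals for a tract defined as a C at the start followed by at least 4 bases that are each C or T. Rps6, the ribosomal protein phosphorylated by the S6 kinases, starts within chr4:86857348-86857377 on the minus strand of GRCm38.p6. Rplp2, a stalk protein, starts within chr7:141447641-141447670 on the plus strand, Rpl38 within chr11:114668570-114668599 on the plus strand, and Rps10 within chr17:27635225-27635254 on the minus strand. Rpl4, which had no such tract in this window, starts within chr9:64173377-64173406 on the plus strand.
Rps6: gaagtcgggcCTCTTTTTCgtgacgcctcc
Rplp2: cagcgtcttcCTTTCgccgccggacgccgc
Rpl38: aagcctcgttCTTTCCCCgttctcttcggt
Rps10: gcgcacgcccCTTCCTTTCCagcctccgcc
Rpl4: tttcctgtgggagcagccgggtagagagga
RefSeq starts were matched for 59 of the 79 gene names, and the tract stood at a start of 13 of them (22.0%), against 800 of 26966 other genes (2.97%). The 13 were Rpl14, Rpl15, Rpl28, Rpl35, Rpl35a, Rpl38, Rplp2, Rps10, Rps15a, Rps18, Rps21, Rps27 and Rps6. The letters CTTTCC, searched on the coding strand from 20 bases before to 30 bases from the start, and which can lie inside the tract, were found for 11 of the 59 (18.6%) and for 2.83% of all genes. A match describes letters at the annotated start only, which can lie some bases from the start used in the gland.

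Signal intensity and background differed between the arrays. The 75th percentile of the background-subtracted signal, to which each array was scaled, was 966 and 972 on the untreated tumour arrays, 730 at day 3, 177 and 236 at day 14, 384 and 145 in parotid and 277 in submandibular gland. Between 43.2% and 58.4% of spots were well above background and none was saturated. The day 3 array had 846 spots called non-uniform or outlying, against 68 to 132 on the others, and no member was lost through this. The arrays lay on 2 slides: both untreated arrays, 1 parotid array and 1 day 14 array on the first, the rest on the second.

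Most ribosomal protein probes were among the brightest of the array in all 5 groups. Levels are given as log2 signal relative to the 75th percentile of the array, so that a level of 0 is the 75th percentile and a difference of 1 is 2-fold. The median level of the 127 tested members was 6.44 and 6.75 in untreated tumour, 6.68 at day 3, 6.21 and 6.44 at day 14, 7.12 and 7.20 in parotid and 6.60 in submandibular gland. The 2 parotid arrays stood above all others, day 3 and submandibular gland lay between the untreated values, and the day 14 arrays were the lowest, the higher of them level with an untreated array. The median of all tested probes stayed between -0.76 and -0.69 on every array. The members made up 10.3% and 11.2% of the summed signal in untreated tumour, 12.3% at day 3, 10.1% and 9.94% at day 14, 14.5% and 13.1% in parotid and 10.01% in submandibular gland.

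**Figure D1:**
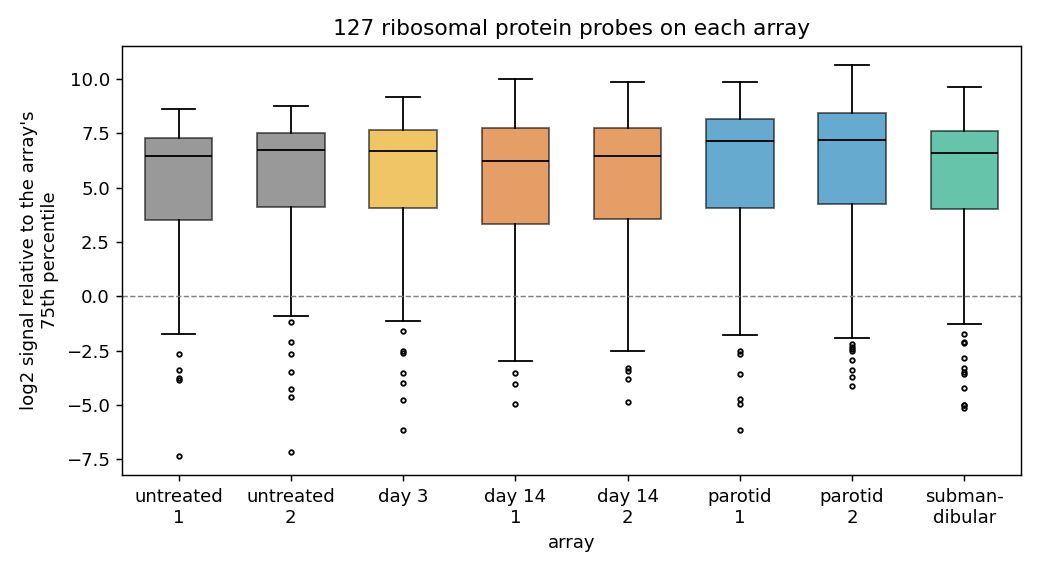
Box plots of the log2 signal relative to the 75th percentile for the 127 tested ribosomal protein probes on each of the 8 arrays (line, median; box, quartiles; whiskers, range without the outlying probes drawn as points). The medians lie between 6.21 and 7.20, and both parotid arrays are the highest.

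After 14 days of rapamycin the ribosomal proteins did not move as 1 block in the chosen scaling. Against untreated tumour, 14 member probes rose and 26 fell by limma with Benjamini-Hochberg adjusted p under 0.05, while 21.5% of all tested probes rose and 24.9% fell. The median difference of the members was -0.12, next to -0.10 for all tested probes, and 59 of 127 members lay above 0. The 2 day 14 arrays and the 2 untreated arrays did not overlap for 43 members that were higher (39.3% of all probes) and 58 that were lower (44.4%). Among the small subunit probes 7 of 52 rose and 10 fell, with a median of 0.08. Among the large subunit probes 5 of 72 rose and 15 fell, with a median of -0.30. The share of members called in either direction was thus below that of all probes, which was 46.5%. All other scalings but normexp gave a larger excess of falls, as listed next.

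More of the falls than of the rises at day 14 held in the other scalings tried. Of the 26 falls, 24 also passed under each of 5 other choices, namely median scaling, total signal scaling, normexp background correction, quantile normalization and the authors' deposited log2 values. Of the 14 rises, 2 did so, Rpl3l and a probe of Rpl21, and 7 kept their sign in all 5. The counts of rises and falls were 3 and 48 with median scaling, 5 and 72 with quantile normalization, 5 and 82 with the deposited values, 18 and 25 with normexp, and 13 and 60 with total signal scaling. The shares of all probes given above are for the chosen scaling, so these counts have no such share beside them. The set's median was -0.12 in the chosen scaling, -0.09 with normexp, -0.63 with the median and with total signal, -0.67 with quantile normalization and -0.84 with the deposited values. Set against the median of all probes in the same scaling, these were -0.02, -0.24, -0.02, -0.02, -0.44 and -0.59. Before the median of all probes was taken off, all other choices but normexp put the members' median lower than the chosen scaling did. Such a shift favours keeping falls over keeping rises, so the counts of falls and rises that held are not a like comparison. Leaving out 1 untreated array left 18 or 16 calls, leaving out 1 day 14 array left 19 in both cases, and leaving out either parotid array, which enters only the shared spread, gave 67.

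**Figure D2:**
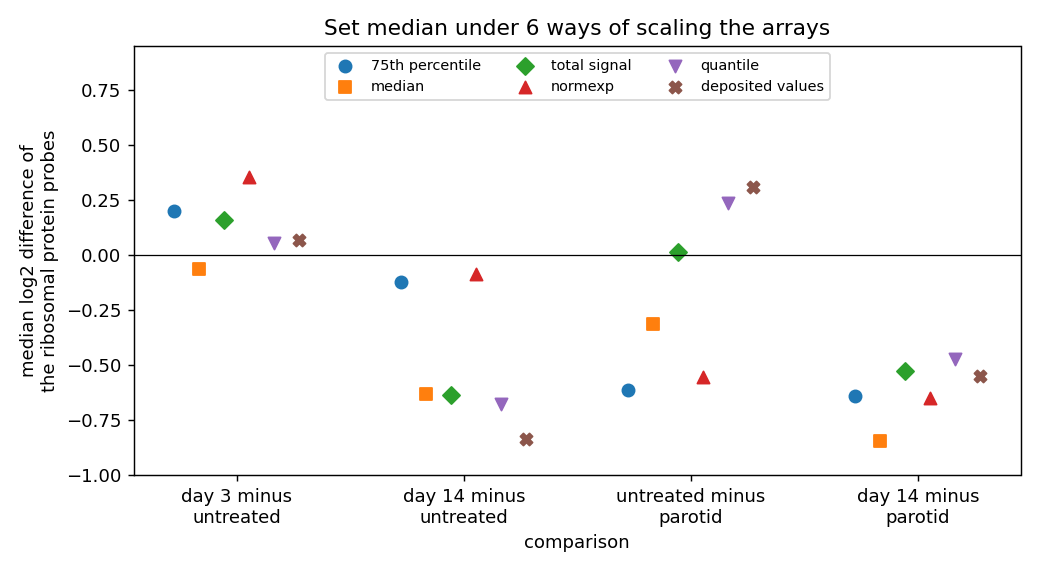
Median log2 difference of the ribosomal protein probes in 4 comparisons (x axis) under 6 ways of scaling the arrays (symbols). The day 14 minus untreated median is below 0 in all 6 and ranges from -0.84 to -0.09, the day 3 median turns from 0.20 to -0.06 with median scaling, and the untreated minus parotid median runs from -0.62 to 0.31.

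The strongest falls were in large subunit proteins. Rpl4, a core large subunit protein that lines the peptide exit tunnel, was measured by 1 probe at chr9:63972936-63972995 of the mm8 assembly. Its level was 3.92 and 4.16 in untreated tumour, 3.63 at day 3, 1.87 and 1.83 at day 14, 3.86 and 4.04 in parotid and 3.82 in submandibular gland. Both day 14 arrays thus stood below the 6 others, which lay close together. Rpl4 fell by 2.19 on the log2 scale (SE 0.20, limma adjusted p = 0.000563), a 4.57-fold difference. Rpl3, a neighbour of the peptidyl transferase centre, had levels of 6.86 and 7.12 in untreated tumour, 6.59 at day 3, 5.21 and 5.63 at day 14, 7.20 and 7.02 in parotid and 6.60 in submandibular gland. The day 14 arrays were again the lowest of the 8, and Rpl3 fell by 1.57 (SE 0.26, limma adjusted p = 0.00441). Neither call was lost in any alternative run on it.

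Rpl7l1, a relative of Rpl7, had 2 probes that differed in size. The one at chr17:46238824-46238883 of mm8 read 0.44 and 0.60 in untreated tumour, -0.04 at day 3, -1.59 and -1.28 at day 14, -0.58 and 0.12 in parotid and -0.19 in submandibular gland, and fell by 1.95 (SE 0.31, limma adjusted p = 0.00383). The brighter one gave -0.51 (SE 0.24, limma adjusted p = 0.128). All 4 probes of Rpl29, a small lysine-rich large subunit protein, lay below 0 at day 14, from -1.74 to -0.53, and 3 of them fell. The fall of 1.74 was not called without untreated array 2 or without day 14 array 1. Both tested probes of Rpl31 fell (-1.63 and -1.55), and the probe of Rpl14 fell by 1.62. Further large subunit falls were a probe each of Rpl7, Rpl21, Rpl6, Rpl10a, Rpl7a and Rpl19, with differences from -1.52 to -0.73. Another probe of Rpl7, Rpl21, Rpl7a and Rpl19 lay above 0, at 0.48, 1.91, 0.97 and 0.22, and the other Rpl6 probe gave -0.45.

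In the small subunit the largest fall was a probe of Rps24 at chr14:23329232-23329291 of mm8, designed on a transcript other than a RefSeq mRNA. It read 0.68 and 0.48 in untreated tumour, -0.06 at day 3, -1.03 and -1.22 at day 14, -0.34 and -0.03 in parotid and -1.11 in submandibular gland. The 2 day 14 arrays were below both untreated arrays but beside the submandibular one, and the probe fell by 1.71 (SE 0.26, limma adjusted p = 0.00294). Single probes of Rps19, Rps20, Rps2, Rps3, Rps12, Rps9 and Rps26 were among those that fell as well, with differences from -1.35 to -0.80. The other tested probe of Rps19, Rps20, Rps2, Rps3 and Rps12 lay above 0, at 0.61, 1.04, 0.41, 0.16 and 1.5. Rps9 and Rps26 had no other tested probe. Rps6, the substrate that gives the S6 kinases their name, read 5.77 and 6.0 in untreated tumour, 5.71 at day 3, 5.25 and 5.16 at day 14, 6.23 and 6.53 in parotid and 5.64 in submandibular gland. The day 14 values were the lowest of all arrays, yet the difference of -0.68 (SE 0.23) missed the threshold (limma adjusted p = 0.0509). It passed in 11 of 20 alternatives, among them median, total signal and quantile scaling and the deposited values.

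The 3 stalk proteins split at day 14. Rplp0, which anchors the stalk to the ribosome, read 5.68 and 5.54 in untreated tumour, 5.04 at day 3, 4.80 and 4.22 at day 14, 5.57 and 5.91 in parotid and 5.25 in submandibular gland. It fell by 1.10 (SE 0.27, limma adjusted p = 0.0184), and this call was lost without either untreated array, without day 14 array 2 and with slide as a fixed block. Rplp1 and Rplp2, which form the flexible dimers of the stalk, went the other way in the chosen scaling. Rplp1 read 7.81 and 8.43 in untreated tumour, 8.50 at day 3, 9.56 and 9.75 at day 14, 9.36 and 10.08 in parotid and 9.36 in submandibular gland. Its rise of 1.53 (SE 0.40, limma adjusted p = 0.0210) and that of Rplp2, 1.18 (SE 0.38, limma adjusted p = 0.0408), turned to -0.08 and -0.30 with quantile normalization and to -0.19 and -0.63 with the deposited values.

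**Figure D3:**
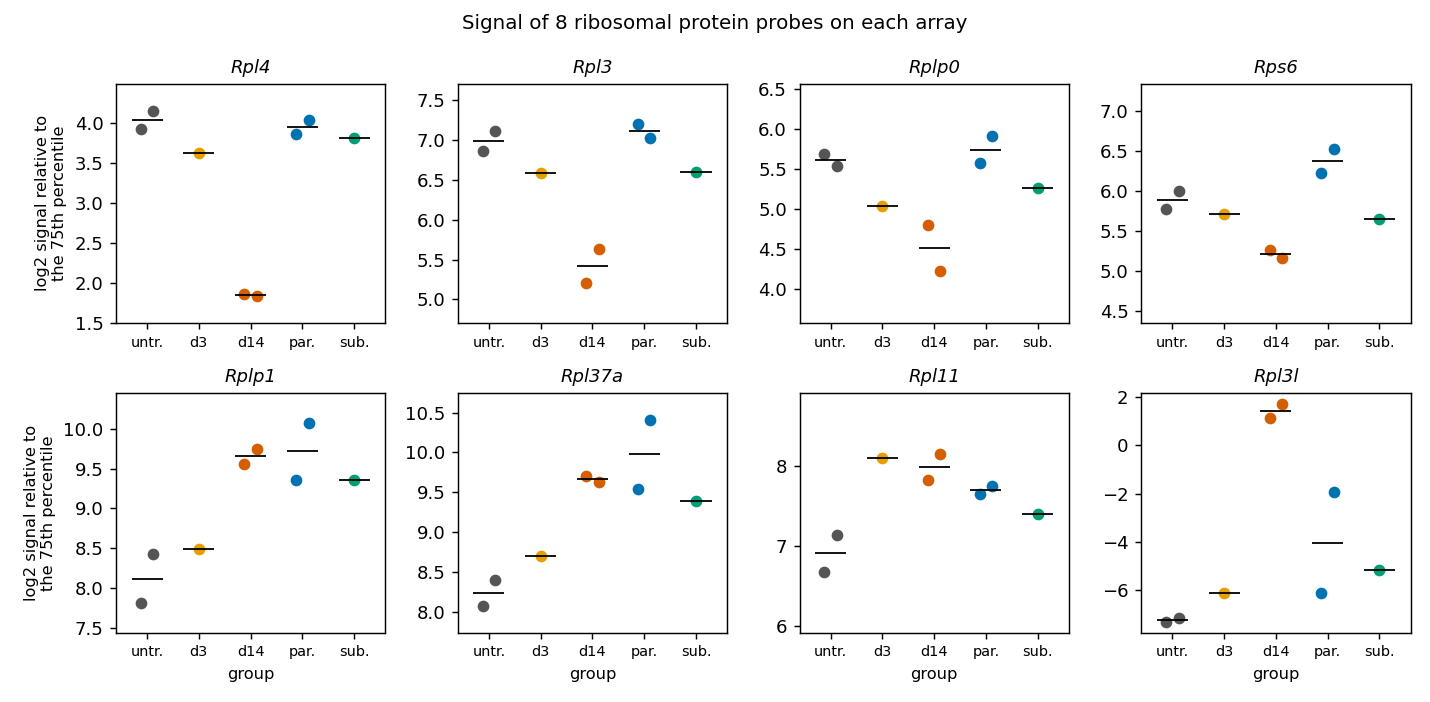
Log2 signal relative to the 75th percentile of 8 ribosomal protein probes by group (points, arrays; lines, group means; untr., untreated tumour; d3 and d14, days of rapamycin; par., parotid; sub., submandibular). Rpl4, Rpl3, Rplp0 and Rps6 are lowest at day 14, Rplp1 and Rpl37a are lowest in untreated tumour in this scaling but not with the deposited values, and Rpl3l is high only at day 14 and intermediate on 1 parotid array.

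The largest rise was in Rpl3l, the striated muscle paralogue of Rpl3, and it went with muscle markers. Its probe at chr17:24463068-24463336 of mm8 read -7.34 and -7.17 in untreated tumour, -6.15 at day 3, 1.15 and 1.71 at day 14, -6.16 and -1.94 in parotid and -5.16 in submandibular gland. It was well above background only on both day 14 arrays and on the second parotid array. Only the day 14 group, where it is high, thus brought it into the tested set, and its call is not independent of that filter. With no filter on dim probes all 14 rises, this one included, were still called. It was at least 275-fold higher at day 14 than in untreated tumour, counting the untreated arrays at the lowest signal that was well above background (log2 difference 8.68, limma adjusted p = 0.00255). The summed level of 7 skeletal muscle markers was 9.35 and 9.60 at day 14, 6.16 on the second parotid array and between -2.19 and -0.15 on the other 5 arrays. All 7 muscle markers rose at day 14, and their part in the Rpl3l value was not tested. In tissue samples such as these, a change in the share of a cell type and a change in RNA per cell cannot be told apart.

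Other rises were smaller. A probe of Rpl21 designed on a predicted transcript read 1.07 and 1.31 in untreated tumour, 1.23 at day 3, 3.61 and 2.58 at day 14, 3.74 and 3.67 in parotid and 3.39 in submandibular gland, with untreated and day 3 tumour clearly below the rest. It rose by 1.91 (SE 0.35, limma adjusted p = 0.0058), while the other Rpl21 probe fell by 1.44. A probe of Rps3a rose by 1.57 (SE 0.37, limma adjusted p = 0.0145), from 3.02 and 4.08 in untreated tumour to 5.03 and 5.19 at day 14, not called with median scaling or without untreated array 1 or either day 14 array. Its day 3 level was 5.35, also above untreated tumour. A dim Rps4x probe with no listed position rose by 2.14 (SE 0.38, limma adjusted p = 0.00531), not called with normexp or without untreated array 2, and the brighter Rps4x probe gave 0.75 (limma adjusted p = 0.0901). Rpl11, which with Rpl5 and 5S RNA restrains Mdm2 when ribosome assembly fails, rose by 1.08 (SE 0.29, limma adjusted p = 0.0241), a call lost under median, quantile and total signal scaling, the deposited values and slide as a fixed block, and without any 1 of the untreated or day 14 arrays. Its partner Rpl5 gave -0.35 (SE 0.33, limma adjusted p = 0.411).

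The other rises were Rpl37a, Rpl38, Rps7, Rps18, Rps27 and a probe each of Rps12 and Rps24, between 0.94 and 1.5. Among these, Rpl37a, Rpl38, Rps7, Rps18 and Rps27 had the opposite sign in at least 1 of the 5 other scalings. Of the members fixed for description that did not pass, Rpl10 gave 0.29, Rpl13a -0.67, Rpl22 -0.48, its paralogue Rpl22l1 0.36, Rpl39 0.10, Rps19 (brighter probe) 0.61, Rps27l 0.51 and Rps27a 0.78 at day 14. Rpl10 was -0.70 with the deposited values. Rps27a, which is made as a fusion with ubiquitin, varied widely within a group, with 6.20 and 7.19 at day 14 and 5.57 and 6.26 in untreated tumour. The member nearest the set's median was a probe of Rps21, at -0.12, with values of 0.54 and 2.03 in untreated tumour and 0.08 and 2.25 at day 14.

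**Figure D4:**
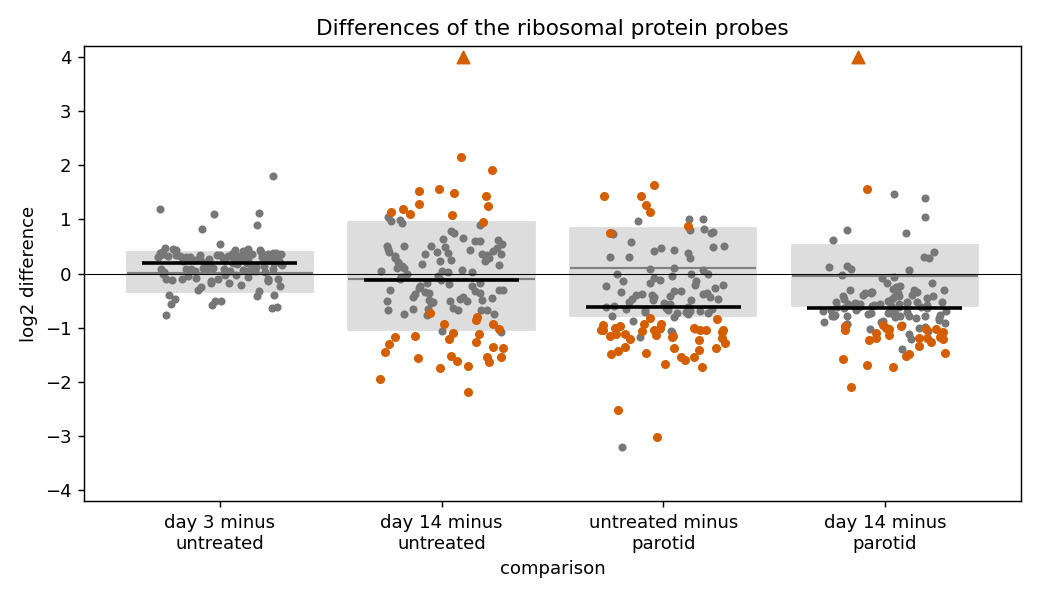
Log2 differences of the 127 ribosomal protein probes in 4 comparisons (orange, passed at adjusted p under 0.05; grey points, did not pass; black line, members' median; grey band and line, quartiles and median of all 24286 probes; triangles, Rpl3l at 8.68 and 5.48 beyond the axis). In the chosen scaling the members at day 14 spread to both sides of 0 with 14 rises and 26 falls. Other scalings except normexp give a larger excess of falls. In parotid comparisons their median lies near -0.6, although the untreated minus parotid median is 0.24 with quantile normalization and 0.31 with the deposited values.

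Whether a member was higher or lower at day 14 went with how bright its probe was. Members with a mean level under 0 had a median difference of -0.75 (13 probes), those from 0 to 5 had -0.67 (27 probes), those from 5 to 7 had -0.46 (30 probes), those from 7 to 8 had 0.25 (32 probes) and those from 8 up had 0.64 (25 probes). Of the 25 brightest probes 7 rose and none fell, and of the 27 at levels from 0 to 5, 2 rose and 11 fell. Of all tested probes in those ranges, members included, 38.3% rose and none fell at the brightest levels, and 20% rose and 28.9% fell from 0 to 5. The brightest range held 25 members and 22 other probes, so its share covers both. With 7 of 25 rising, the members' own share of rises lay below it. This pattern depended on the scaling. The median of the 25 brightest members was 0.58 with normexp, 0.14 with median scaling and 0.13 with total signal, but -0.56 with quantile normalization and -0.75 with the deposited values, where 14 and 17 of them fell and none rose. In the range from 0 to 5 the median stayed between -1.18 and -0.61 in those 5. In the chosen scaling, the other probes of the array in the same ranges had medians of -0.06, -0.16, 0.10, 0.58 and 1.40, so the brightest members lay below the 22 other probes of that brightness. Across the 127 members Spearman's rho between mean level and the day 14 difference was 0.57, and across all 24286 probes it was -0.02; probes of 1 array share its labelling and scaling and are not independent replicates. The 100 brightest probes held 16.8% and 18.6% of the summed signal in untreated tumour, 20.8% at day 3, and 34.6% and 35.1% at day 14, and the part of this shift in the members' values was not tested.

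**Figure D5:**
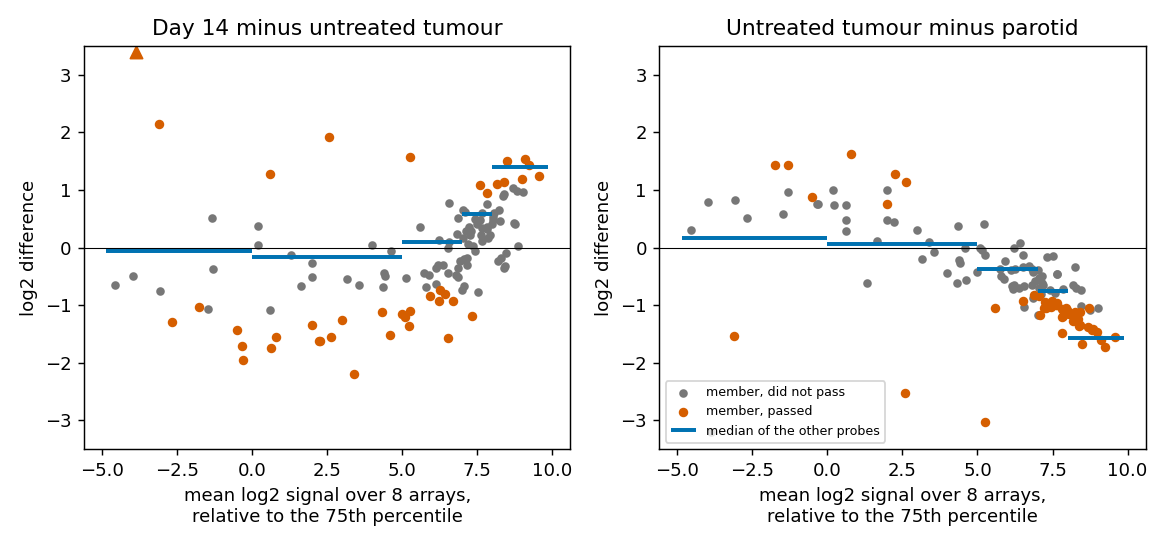
Log2 difference (y axis) of each tested ribosomal protein probe against its mean level over 8 arrays (x axis) for day 14 minus untreated tumour (left) and untreated tumour minus parotid (right); orange points passed, the triangle is Rpl3l at 8.68, and blue lines are medians of the other probes in 5 ranges of level. Bright members lie above 0 on the left and below 0 on the right in this scaling, and the left median of the 25 brightest is 0.64.

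Probes of the same gene often differed. Of 37 genes with at least 2 tested probes, 20 had probes of opposite sign at day 14, 18 had probes more than 1 apart, and 3, Rpl21, Rps12 and Rps24, had 1 probe that rose and another that fell. The 2 probes of Rps12 gave 1.5 for the one on the RefSeq mRNA and -1.03 for the one on another transcript. The first read 7.42 and 7.57 in untreated tumour and 9.12 and 8.87 at day 14. The second read -0.63 in both untreated arrays and -1.66 and -1.67 at day 14. When the brightest probe stood for each of the 79 genes, 11 rose and 9 fell at day 14 and the median was 0.22. Mammalian ribosomal protein genes have many processed pseudogenes, and how far probes bind transcripts of other copies was not tested.

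Members with and without the annotated tract were found among both the rises and the falls. The 13 genes with it at their start had a median day 14 difference of -0.30, taking the brightest probe of each, and the 46 matched genes without it had 0.31, a difference that was not tested. The 46 are not genes known to lack a tract. In Rpl7a and Rpl27a, for example, a run of pyrimidines crosses the annotated start, but the base at that start is a T. At day 3 both medians were 0.23. Genes with the tract included Rps18, Rps27, Rpl38 and Rplp2, which rose in the chosen scaling but did not keep their sign in all others, and Rpl14, which fell. Rpl4, Rplp0 and Rpl3l had none at a matched start.

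At day 3 no ribosomal protein probe passed, where 1 of all 24286 did (0.00412%). With limma, 2 members had an unadjusted p under 0.05, against 2092 of all probes, and with a single array the day 3 spread was taken from the replicated groups. The median difference from untreated tumour was 0.20, against 0.01 for all probes, and 94 of 127 members lay above 0. Small and large subunit probes gave 0.27 and 0.19. With median scaling the median was -0.06, 0.19 above that of all probes as before. With slide as a fixed block it was -0.01, the day 3 array being on the second slide and both untreated arrays on the first. Without the first or second untreated array it was 0.08 or 0.26. The largest differences were in Rps3a (1.80, SE 0.45, limma adjusted p = 0.347) and Rpl11 (1.19, SE 0.36, limma adjusted p = 0.436). Rpl11 read 8.10 at day 3, against 6.68 and 7.14 in untreated tumour and 7.83 and 8.15 at day 14. The member nearest the median, a probe of Rpl13, read 7.14 at day 3 against 6.84 and 7.05. Rplp0 gave -0.57, Rpl3 -0.40 and Rps6 -0.17, none past the threshold, and Rplp1 and Rplp2 gave 0.38 and 0.35. The summed level of 6 adipocyte markers was 6.53 at day 3 and 4.52 and 3.70 in untreated tumour, which was not tested as a part of these values.

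Between day 3 and day 14, 3 members rose (9.56% of all probes) and 15 fell (11.8%), with a median of -0.37 against -0.09 for all probes. The falls were led by Rpl4, by 1.78 (SE 0.24, limma adjusted p = 0.00576), and a probe of Rpl29, by 1.65 (SE 0.44, limma adjusted p = 0.0438), and 13 of the 15 were in the large subunit. Of the rises, Rpl3l was at least 106-fold higher at day 14 than at day 3, and the fitted fold of the dim Rps4x probe was 7.54 (limma adjusted p = 0.0188 and 0.00926), both probes being not well above background at day 3. For Rps4x no lower bound is given, because its own signal on that array lay above the lowest signal that was well above background. This comparison rests on 1 day 3 array. Without the first or second day 14 array 0 or 1 members passed, without either untreated array 6 passed, and without the first or second parotid array 47 or 46 passed.

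Untreated tumour had lower signal than parotid for most ribosomal protein probes in the chosen scaling. With limma, 7 members were higher in tumour (18.3% of all probes) and 41 lower (17.5%; 35.9% in either direction), the median difference was -0.62 against 0.10 for all probes, and 97 of 127 lay below 0. That direction turned to a median of 0.24 with quantile normalization and 0.31 with the deposited values, and was 0.01 with total signal scaling. Relative to the median of all probes it was -0.71 in the chosen, median and total signal scalings, -0.43 with normexp, 0.02 with quantile normalization and 0.11 with the deposited values. The counts higher and lower were 13 and 7 with median scaling, 21 and 20 with total signal, 22 and 4 with quantile normalization, and 25 and 3 with the deposited values. With normexp 38 of the 41 lower calls and 3 of the 7 higher calls were kept. All shares of all probes in this paragraph are for the chosen scaling. Values did not overlap for 21 members higher in tumour (38.6% of all probes) and 84 lower (32.9%).

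Of the 41 lower calls 2 held in all 5 other scalings, a probe of Rps3a and a probe of Rpl21. Rps3a read 3.02 and 4.08 in untreated tumour, 6.43 and 6.71 in parotid and 6.14 in submandibular gland, a difference from parotid of -3.02 (SE 0.37, limma adjusted p = 0.00171). Rpl21 gave -2.52 (SE 0.35, limma adjusted p = 0.00275). Of the 7 higher calls 3 held in all 5, in Rpl31, Rpl14 and Rpl29. Rpl31 read 1.91 and 1.79 in untreated tumour, 1.68 at day 3, 0.35 and 0.26 at day 14, -0.00075 and 0.45 in parotid and -0.04 in submandibular gland. Untreated and day 3 tumour were thus high and all other arrays low, and the difference from parotid was 1.63 (SE 0.24, limma adjusted p = 0.00348). Rpl14 read 3.22 and 3.21 in untreated tumour, 2.90 at day 3, 1.34 and 1.85 at day 14 and 2.02 and 1.87 in parotid, a difference of 1.27 (SE 0.24, limma adjusted p = 0.00844), not called without either untreated array. Dim probes of Rps12 (1.44) and Rpl13 (1.43), both on transcripts other than a RefSeq mRNA, were also higher in tumour, calls that were lost without either untreated array.

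The bright members Rpl37a (-1.73), Rps12 (-1.68), Rplp1 (-1.60) and Rplp2 (-1.47) were lower in untreated tumour than in parotid, and so were Rps4x (-1.21), Rpl5 (-1.13), Rpl22l1 (-1.05) and Rpl10 (-1.05). With the deposited values the signs of Rpl37a, Rplp1, Rplp2, Rps4x, Rpl5 and Rpl10 turned, to between 0.02 and 0.45, and each of the 8 calls was lost with median scaling, with quantile normalization or with both. Rpl3 (-0.12), Rplp0 (-0.13), Rps6 (-0.49), Rpl22 (-0.37) and Rpl13a (-0.52) did not pass. Without the first or second untreated array 4 or 3 members passed, without either day 14 array 10, and without the first parotid array 78. By brightness the members' medians ran from 0.76 under a level of 0 to -1.16 from 8 up, and those of the other probes from 0.17 to -1.57. Slide 1 alone, with both untreated arrays and 1 parotid array, gave a median of -0.55 and 64 calls.

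Day 14 tumour was also lower than parotid, and there the direction did not depend on the scalings tried. With limma, 2 members were higher (6.34% of all probes) and 26 lower (6.65%), with a median of -0.64 against -0.04 for all probes, and from -0.85 to -0.47 over the other 5 scalings. Values did not overlap for 94 members that were lower (30.9% of all probes) and 9 that were higher (25.6%). Of the 26 lower calls 14 held in all 5, among them Rpl4 (-2.10), a probe of Rps3 (-1.73), Rpl3 (-1.69), Rpl5 (-1.48), Rpl13a (-1.19) and Rps6 (-1.17). The Rps3 probe, for a protein at the mRNA entry channel, read 3.07 and 3.76 at day 14 and 5.30 and 4.98 in parotid. Rpl3l and a probe of Rps24 (1.56, SE 0.35, limma adjusted p = 0.0372) were higher, Rpl3l being well above background on 1 of the 2 parotid arrays. Both calls were lost when any 1 of the untreated or day 14 arrays was left out. No member passed without the first or the second day 14 array, 6 passed without either untreated array, and 83 passed without the first parotid array. The comparisons of untreated tumour with day 14 and with parotid share the untreated arrays, and those of day 14 with untreated tumour and with parotid share the day 14 arrays.

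Submandibular gland, with 1 array, differed from untreated tumour in both directions. With limma, 12 members were higher in tumour (13.8% of all probes) and 2 lower (13.5%), with a median of 0.01. The largest were the dim probes of Rps12 and Rpl13, which read -4.22 and -3.5 in submandibular gland, not well above background there. Rps12 was at least 7.04-fold higher in tumour (log2 difference 3.59, limma adjusted p = 0.00186) and Rpl13 at least 7.55-fold (log2 difference 2.97, limma adjusted p = 0.00965), the latter not called with slide as a fixed block. The 2 lower ones were again the probes of Rps3a (-2.60, not called with slide as a fixed block) and Rpl21 (-2.20). Against parotid, submandibular gland had no member past the threshold (2.14% of all probes passed, 1.24% higher and 0.898% lower), 23 members had an unadjusted p under 0.05 with limma, and the median was -0.58. Without the first or second parotid array 21 or 14 members passed in that comparison.

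The members followed each other across the 8 arrays only in part. Pearson's r of a member with the mean of all tested members had a median of 0.65, ran from -0.81 to 0.98, was over 0.8 for 42 members and below 0 for 14. The 3 genes outside the family whose levels were most like that mean over the 8 arrays were Uap1l1 (r = 0.96), Phf20l1 (r = 0.95) and Clec4a3 (r = 0.93). All these values share the same arrays and scaling.

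Genes that build ribosomes mostly fell at day 14. Of 15 genes of ribosome assembly and ribosomal RNA synthesis, the brightest probe of each, 12 fell (24.9% of all probes) and none rose (21.5%), with a median of -1.25, and 12 to 15 fell and none rose in the 5 other scalings. Ncl (nucleolin), an abundant nucleolar protein, read 6.65 and 6.61 in untreated tumour, 6.20 at day 3, 4.48 and 4.62 at day 14, 5.84 and 5.78 in parotid and 5.47 in submandibular gland, and fell by 2.08 (SE 0.21, limma adjusted p = 0.00074). Ltv1, a factor of small subunit maturation, also passed, but was well above background on only 3 arrays. Nop58, a box C/D ribonucleoprotein component, fell by 1.65, and the nucleolar phosphoprotein Nolc1 fell by 1.63. Of these genes 10 were higher in untreated tumour than in parotid (18.3% of all probes) and none was lower (17.5%), with a median of 0.81 (5 to 14 higher and none lower in the other scalings), and none passed at day 3 (median -0.40). Of 16 other TOP mRNAs, 2 rose (21.5% of all probes) and 6 fell (24.9%) at day 14, with a median of -0.48 and from -0.99 to -0.53 in the 5 other scalings. The RNA-binding protein Hnrnpa1 fell by 1.90, the histone chaperone Nap1l1 by 1.77 and Eef2, the translocase of elongation, by 1.62.

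Of 11 tested genes that link mTORC1 to the ribosome, 1 rose (21.5% of all probes) and 3 fell (24.9%) at day 14, with a median of -0.26 and from -0.77 to -0.17 in the other scalings. Eif4ebp1, the translation repressor that mTORC1 phosphorylates, rose by 1.71 (SE 0.41, limma adjusted p = 0.015), from 4.02 and 3.90 in untreated tumour to 5.66 and 5.67. Fkbp1a, the protein through which rapamycin binds mTOR, fell by 3.5, the transcription factor Myc fell by 1.35 and the cap-binding protein Eif4e fell by 0.99. Among ribosomal protein genes that the naming rule left out, Rpsa (the 40S protein also known as the laminin receptor) fell by 1.39, and Fau, Gnb2l1 and Rpl36al gave 1.00, 0.79 and 0.20 at their brightest probes without passing. The dimmer probe of Gnb2l1 gave -1.19. The median of the genes on this list was 0.79, from 0.28 to 0.75 with normexp, median and total signal scaling, but -0.53 with quantile normalization and -0.56 with the deposited values. With each of these last choices 3 genes of the list fell, and with normexp 2 rose and 1 fell.

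Markers of other cells moved with the same groups. All 7 dividing cell markers fell at day 14, with summed levels of 6.43 and 6.50 in untreated tumour, 5.92 at day 3, 2.25 and 2.26 at day 14, 2.73 and 1.39 in parotid and 1.05 in submandibular gland. Of 7 parotid and serous acinar markers 6 rose and 1 fell, and the summed level went from 4.52 and 6.27 to 11.2 and 11.3, against 11.4 and 12.4 in parotid. All 7 granular duct markers rose, from -0.24 and 0.05 to 11.98 and 11.92, against 11.7 in submandibular gland. Of the tested markers, 6 of 6 for B and plasma cells, 5 of 6 for T cells and 5 of 5 for adipocytes rose as well. Among all tested probes 21.5% rose and 24.9% fell at day 14. The part of these shifts in the ribosomal protein values was not tested.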

How the data were processed

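Each array was read by the authors with Agilent Feature Extraction 10.7.3.1 on array design 014868, per the file headers, and the deposited intensity is background-subtracted and not scaled between arrays. The authors' deposited table of log2 values, whose normalization is not given in the sources used here, served as an alternative. Spots called non-uniform or outlying were left out, which removed 124 probes; spots of one probe were averaged. The log2 processed signal minus the array's 75th percentile entered a limma fit (version 3.58.1, R 4.3.3) with 5 group means over 8 arrays and an intensity trend (residual degrees of freedom 3, prior 3.44). The single arrays took their spread from the groups with replicates. The 7 comparisons are two-sided, adjusted over all 24286 tested probes, with a threshold of 0.05. The number of arrays limits the precision.

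The members and lists were chosen with earlier results of these data known. Named were a fixed set of members by their brightest probe, the largest non-overlapping changes past the threshold in each direction (4 for day 14 and day 3 against untreated tumour and untreated tumour against parotid, 2 otherwise), the probe nearest the median, the 3 genes most like the members' mean, and up to 4 members of each other list with the largest change past the threshold. Further genes were named after their values were seen, and some items are not reported here. Alternatives were other scalings, background correction, filters, probe choices, slide and replicate blocks, slide 1 alone, the compared arrays only and leaving out each replicate. The fit was tested on simulated data. Probe positions are on mm8, per the file headers, and transcript starts are RefSeq's on GRCm38.p6. Python 3.11.15, pandas 2.3.3 and matplotlib 3.10.9 were used for sequences and figures.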

Additional observations from a re-analysis of the deposited data

Results flagged for a closer look

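The change from untreated tumour differed between 14 and 3 days of rapamycin for 18 member probes, by limma's test of the difference itself with Benjamini-Hochberg adjustment over all probes. The values below are for the 9 of them that the naming rule covers in any comparison. The untreated arrays cancel in that difference, so it rests on 2 day 14 arrays and 1 day 3 array. Lower at day 14 than at day 3 were Rpl4 (-1.78), a probe of Rpl29 (-1.65), a probe of Rpl7l1 (-1.39), a probe of Rpl31 (-1.37), Rpl14 (-1.30) and Rpl3 (-1.17). The adjusted p was smallest for Rpl4, at 0.00576, and largest for Rpl7l1, at 0.0476. Higher at day 14 were a probe of Rpl21 (1.87, adjusted p = 0.0269), the dim Rps4x probe (2.91, adjusted p = 0.00926) and Rpl3l (7.58, adjusted p = 0.0188). Rps4x and Rpl3l were not well above background at day 3. For Rpl3l the bound given above describes the size of the change, and for Rps4x only the fitted value is available, whose size is uncertain. None of the 15 falls was called without the first or without the second day 14 array, and 4 were called without the first and 4 without the second untreated array. Of the 3 rises, 0 were called without the first day 14 array and 1 without the second. No group held 4 or more arrays, so no array was examined as an outlier within a group.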

How the results depend on the processing

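Medians and counts below are of the 127 ribosomal protein probes, and the share of all probes called under each alternative is not given beside them. Day 14 minus untreated tumour passed 40 probes, day 14 minus day 3 passed 18, untreated tumour minus parotid 48, day 14 minus parotid 28, untreated tumour minus submandibular 14, and the other 2 comparisons none. For day 14 minus untreated tumour the count became 77 with quantile normalization, 87 with the deposited values, 73 with total signal scaling, 63 on slide 1 alone, 67 with the compared arrays only and 21 of 79 with the brightest probe of each gene. With slide as a fixed block 6 of its 14 rises and 22 of its 26 falls were still called. For day 14 minus day 3 it became 59, 73 and 53 in those 3 scalings, 62 with the compared arrays only, 10 with slide as a fixed block or with no intensity trend, and 7 with the brightest probes. For day 14 minus parotid it became 12 with no trend, 17 with the slide block, 4 with the compared arrays only and 14 with the brightest probes. For untreated tumour minus parotid it became 20 with median scaling, 26 with quantile normalization, 28 with the deposited values, 11 with the slide block and 13 with the compared arrays only. For untreated tumour minus submandibular it became 54, 50 and 29 with quantile normalization, deposited values and total signal, 46 with the compared arrays only, 5 with the slide block, 3 with the brightest probes and 6 with probes on a RefSeq mRNA only. For submandibular minus parotid it became 2 with quantile normalization and 1 with no filter, no trend or total signal scaling. Leaving out 1 array gave 16 to 67, 0 to 47, 3 to 78, 0 to 83, 5 to 36 and 0 to 21 calls in these comparisons in the order of the first sentences, and none at day 3.

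The median of untreated tumour minus parotid (-0.62) reversed to 0.24 with quantile normalization, 0.31 with the deposited values and 0.013 with total signal, and was -0.31 with median scaling and -0.88 with the brightest probes. At day 3 it reversed to -0.065 with median scaling and -0.0056 with slide as a fixed block. At day 14 against untreated tumour it was -0.63, -0.67, -0.84 and -0.63 with median, quantile, deposited and total signal values and 0.22 with the brightest probes. Day 14 minus day 3 was -0.61, -0.75, -0.94 and -0.84 in those 4, -0.55 with normexp and -0.10 with the brightest probes. Day 14 minus parotid was -0.85 with median and -0.47 with quantile scaling and -0.81 on slide 2 alone. Untreated tumour minus submandibular was 0.71, 0.68 and 0.49 with quantile, deposited and total signal values and -0.22 with the brightest probes, and submandibular minus parotid was -0.37 with median scaling and -0.34 with the deposited values. The causes were not tested.

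Among the values of named probes under alternatives, 1407 kept direction and call, 16 reversed, 143 lost the call and 57 gained it. With quantile normalization, Rplp1 and Rplp2 became -0.076 and -0.30 at day 14, and Rplp2 and Rpl5 became 0.047 and 0.36 against parotid. With the deposited values, Rplp1, Rplp2 and Rpl10 became -0.19, -0.63 and -0.70 at day 14. Against parotid, Rpl37a, Rplp1, Rplp2, Rpl5, Rps4x, Rpl10, Rpl13a, Rpl22 and Rpl3 became 0.15, 0.017, 0.26, 0.45, 0.080, 0.065, 0.59, 0.75 and 0.87.

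The replicate numbers do not pair the arrays by any label, and deviations of same-numbered arrays correlated at 0.135, 0.0112 and -0.0721 over all probes for untreated tumour with day 14, untreated with parotid and day 14 with parotid, and at 0.651, -0.212 and -0.428 over the members. With the replicate block 38 probes passed for day 14 minus untreated tumour, 47 for untreated tumour minus parotid and 19 for day 14 minus parotid. Total signal scaling, slide 2 alone and the RefSeq mRNA restriction were chosen after seeing the data. Slide 1 alone could not give comparisons with day 3 or submandibular gland, and slide 2 alone, with 1 array a group, gives a value and no test. Dim arrays at day 14 and in parotid limit what can be said of members near background.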

Other observations

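The mitochondrial ribosomal proteins, which build the separate ribosome of the mitochondrion, moved mostly one way. With the brightest probe of each of 75 genes, 44 fell at day 14 against untreated tumour (24.9% of all probes) and none rose (21.5%), by limma with Benjamini-Hochberg adjustment, with a median of -0.80. In the 5 other scalings 36 to 65 fell and at most 1 rose, with medians from -1.31 to -0.75. Mrpl37, Mrps23 and Mrpl9 fell by 2.49, 2.08 and 2.07. At day 3 none passed and the median was -0.35, from -0.62 to -0.23 in the other scalings. Against parotid, 19 were higher in untreated tumour (18.3% of all probes) and 2 were lower (17.5%), with a median of 0.43 that stayed above 0 in the 5 other scalings, from 0.38 to 1.06. The cytosolic genes over the same pair of tissues, also by the brightest probe of each, had a median of -0.88. Over all their probes it was -0.62, with a sign that turned under quantile normalization, the deposited values and total signal scaling. Whether the lists differ from each other was not tested.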
